A study of Mus musculus with 40 samples.

Results

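The proteasome genes were the gene symbols of the read count table that start with Psma, Psmb, Psmc, Psmd, Psme, Psmf or Psmg followed by a digit, without pseudogene names, and 50 of 23955 symbols met that rule. They were followed in the hypothalamus of 36 BXD lines, which are inbred mouse lines bred from crosses of C57BL/6J with DBA/2J, and in 1 library each of C57BL/6J, DBA/2J and their reciprocal hybrids B6D2F1 and D2B6F1, all at 1 time point and without treatment. Every strain gave 1 library, and a BXD library pooled RNA of 3 to 6 hypothalami, so the spread between animals of a strain was not measured and p-values rest on the spread between strains. Age and sex of the mice are not given in the sources used here. The study's title ties Fgf15/19 of the hypothalamus to glucagon secretion. Library totals ran from 12231736 to 40386035 counts. All 10 hypothalamus markers listed, such as Agrp, Pomc and Hcrt, had a mean of at least 1 CPM, as did all 5 neuron markers. In bulk tissue, fewer cells of a type and less RNA per cell cannot be told apart.

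The proteasome is the barrel-shaped protease that breaks down proteins marked with ubiquitin. Its 20S core is built of alpha subunits (Psma), which form the gated outer rings, and beta subunits (Psmb), of which the products of Psmb5, Psmb6 and Psmb7 carry the cutting sites. A 19S cap, with a ring of ATPases (Psmc) and non-ATPase subunits (Psmd), receives and unfolds the substrate, and activators (Psme) can take its place. In immune cells and after interferon gamma, Psmb8, Psmb9 and Psmb10 replace the products of Psmb5, Psmb6 and Psmb7 and form the immunoproteasome, which favours peptides for MHC class I. The factor NFE2L1 raises proteasome subunit genes together when the proteasome is inhibited, through antioxidant response elements. The rule also took in Psmc3ip, whose product binds PSMC3 and serves meiotic recombination, the copy Psme2b of Psme2, the testis subunit Psma8 and the thymus subunit Psmb11.

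The promoters of 4 beta subunit genes are shown because the results turn on these genes: Psmb6 and Psmb5, whose levels differed between lines together with those of their neighbours, and the interferon-inducible pair Psmb8 and Psmb9. Each runs 5′ to 3′ from 250 bases before to 50 after the start in RefSeq on GRCm38.p6, at chr11:70525107-70525406 on the plus strand for Psmb6, chr14:54617946-54618245 on the minus strand for Psmb5, chr17:34197945-34198244 on the plus strand for Psmb8 and chr17:34187281-34187580 on the minus strand for Psmb9. Capitals mark the antioxidant response element core TGACNNNGC in Psmb6 and Psmb5, the interferon gamma activated site TTCNNNGAA in Psmb8 and, read on the other strand, the CCAAT box in Psmb9.
Psmb6: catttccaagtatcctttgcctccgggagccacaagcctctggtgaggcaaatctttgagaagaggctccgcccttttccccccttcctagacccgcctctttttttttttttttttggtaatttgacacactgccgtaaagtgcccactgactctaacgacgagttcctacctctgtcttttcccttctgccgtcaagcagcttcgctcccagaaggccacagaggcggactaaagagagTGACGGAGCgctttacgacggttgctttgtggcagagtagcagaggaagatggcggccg
Psmb5: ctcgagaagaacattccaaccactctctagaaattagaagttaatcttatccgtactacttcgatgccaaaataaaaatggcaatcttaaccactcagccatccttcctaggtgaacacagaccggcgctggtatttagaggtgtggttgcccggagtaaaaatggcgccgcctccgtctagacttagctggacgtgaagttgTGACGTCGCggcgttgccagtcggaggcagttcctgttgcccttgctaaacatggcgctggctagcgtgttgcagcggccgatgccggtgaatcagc
Psmb8: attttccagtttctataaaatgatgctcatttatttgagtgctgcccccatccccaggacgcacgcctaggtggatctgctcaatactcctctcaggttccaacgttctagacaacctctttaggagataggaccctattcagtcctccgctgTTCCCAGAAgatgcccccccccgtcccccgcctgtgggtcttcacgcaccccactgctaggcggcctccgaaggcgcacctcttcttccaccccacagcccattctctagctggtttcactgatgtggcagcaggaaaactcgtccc
Psmb9: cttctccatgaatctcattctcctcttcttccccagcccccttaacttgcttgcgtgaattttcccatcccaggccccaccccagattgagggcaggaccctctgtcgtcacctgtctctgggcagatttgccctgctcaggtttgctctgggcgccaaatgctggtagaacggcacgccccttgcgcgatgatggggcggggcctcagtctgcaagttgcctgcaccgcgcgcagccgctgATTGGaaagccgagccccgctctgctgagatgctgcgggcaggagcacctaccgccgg

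RefSeq promoter entries were matched for 42 of the 50 genes, in 45 windows. On a search of both strands no member gene held more than 1 of the 3 motifs. TGACNNNGC stood in 6 of these windows (13.3%), namely those of Psmb5, Psmb6, Psmc6, Psmd9, Psmd12 and Psme4, and in 12.4% of all 32851 promoter windows of the same length. TTCNNNGAA stood in 3 member windows (6.67%), those of Psmb8, Psmd2 and Psmg1, and in 8.30% of all windows. CCAAT stood in 15 member windows (33.3%) and in 37.4% of all. Such matches describe letters in the window and do not show binding.

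Nearly all proteasome genes were read in the hypothalamus. Levels are CPM, counts scaled to a common library size with TMM factors, and they are compared between genes only per kilobase of exon (CPM per kb). Of the 50 genes, 48 had a mean of at least 1 CPM over the lines, as did 14487 of all symbols. The other two were Psma8, with a mean of 0.30 CPM (range over lines 0 to 0.65), and Psmb11, with 0.081 CPM (0 to 0.17). A line without a read allows up to 3 counts, which is 0.073 to 0.249 CPM depending on the library, so both sat near the limit of detection, with 1 line at 0 for Psma8 and 5 lines at 0 for Psmb11. The 31 constitutive 20S and 19S genes had mean levels of 5.62 to 129 CPM per kb, with a median of 57.5. Psmc5, an ATPase of the 19S ring, was the highest at 129, followed by the beta subunit gene Psmb4 at 87.9 and the alpha subunit gene Psma6 at 82.2.

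Part of that range went with sequence shared between genes. Among the 21 constitutive genes with no 100-base exon window identical to one of another gene, levels ran from 33.7 to 129 CPM per kb, a ratio of 3.83. Constitutive genes with some but at most 10% of windows shared were mixed. Psmd11 (6.11% shared) had 12.7 CPM per kb, Psma2 (0.96%) 24.9, Psma4 (7.69%) 38.9 and Psmd1 (6.84%) 72.8. The 4 constitutive genes with more than 10% of their windows shared were Psma5 (27.5%), Psmb5 (24.9%), Psma3 (20.6%) and Psmb3, and they had 5.62 to 16.8 CPM per kb. Reads in such windows may not have been placed on 1 gene, so the levels of these genes are uncertain. The part of shared windows in their low level was not tested. The same holds for the activator gene Psme2, with 5.79 CPM per kb and 44.5% of windows shared with Psme2b, which had 29.5 CPM per kb and 52.0% shared.

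The chaperone genes lay below every constitutive subunit gene without shared windows, the lowest of which was Psmd13 at 33.7 CPM per kb. They did not lie below all the others, as Psmd11, with 6.11% of windows shared, had 12.7 and the chaperone gene Psmd5 14.9. The 4 genes of the 20S assembly chaperones, Psmg1 to Psmg4, had 7.80 to 12.5 CPM per kb, and the 3 chaperone genes of the 19S base, Psmd5, Psmd9 and Psmd10, had 9.86 to 14.9. Psmg3 had 17.7% of its windows shared with another gene, so its level is uncertain too. Psmf1, which encodes the inhibitor PI31, had 11.96 CPM per kb. Of the activators, Psme3 (the nuclear PA28 gamma ring) had 44.6, Psme1 (PA28 alpha) 40.2 and Psme4 (PA200) 9.90 CPM per kb. The immunoproteasome genes Psmb8 and Psmb9 had 1.75 and 0.919 CPM per kb, far below the subunits they replace, whereas Psmb10 had 18.3.

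**Figure D1:**
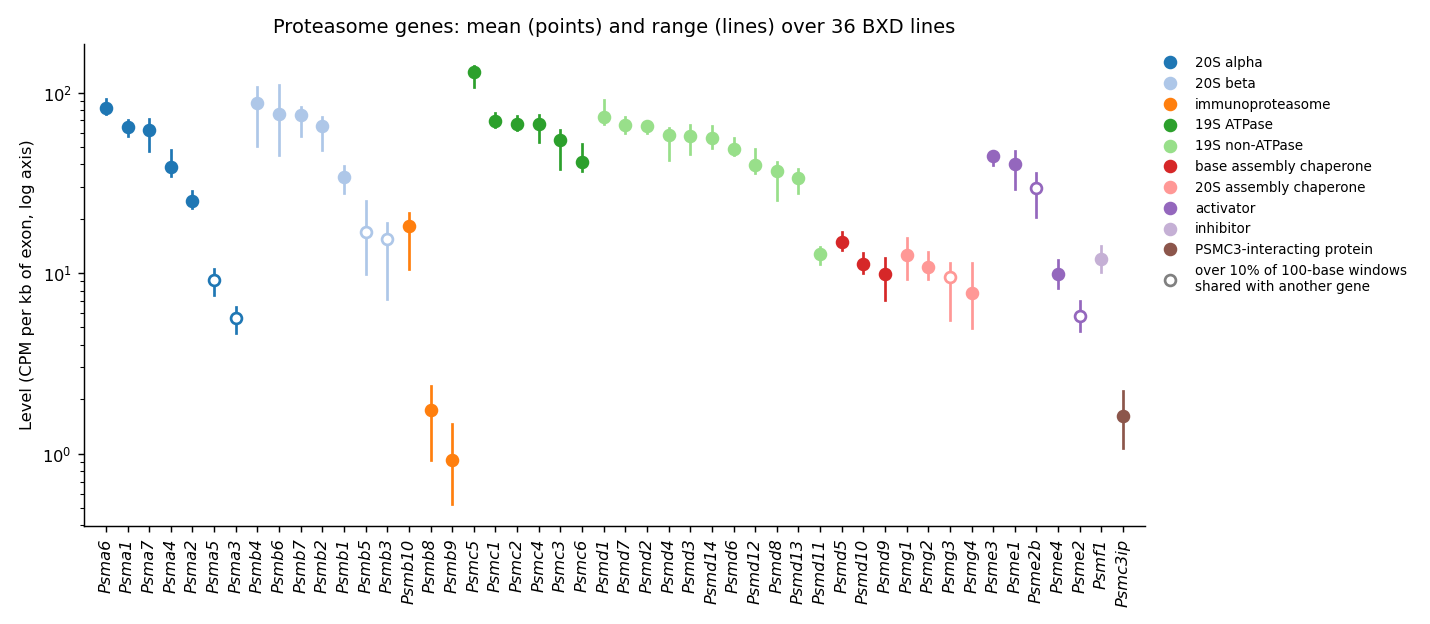
Mean level (points) and range over 36 BXD lines (vertical lines) of the 48 proteasome genes with at least 1 CPM, in CPM per kb of exon on a log axis, coloured by role. Open points mark genes with more than 10% of their 100-base windows shared with another gene, and Psmb8, Psmb9 and Psmc3ip lie below the rest.

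Most proteasome genes differed little between lines. The median SD over the 36 lines was 0.11 log2 units for the 48 genes and 0.15 for all 14487 genes, and the median ratio of the highest to the lowest line was 1.41. The 19S gene Psmd2 showed this steadiness at high depth, with 176 CPM in the lowest line (BXD43), a median of 192 and 206 CPM in the highest (BXD103). Its SD of 0.06 log2 units compares with 0.02 from counting alone. The ATPase gene Psmc1 ranged from 102 to 123 CPM and the activator gene Psme3 from 106 to 126 CPM. To compare genes of unlike level, each SD was set against the trend of SD on mean level, and the residual was ranked among all genes. The median rank of the 48 genes was the 32.8th percentile, 13 of them lay under the 10th, and 29 lay under the 50th.

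The most variable genes were beta subunit genes, but the beta genes differed among themselves and their median rests on BXD32 and BXD43, libraries described next. The median rank of the 7 constitutive beta genes was the 83.4th percentile over all lines and the 37.2nd without these 2 libraries. Over all lines the medians were 9.49 for the alpha subunits, 30.6 for the ATPases and 23.3 for the non-ATPase subunits of the cap. A gene was called variable above the 90th percentile, which by construction takes 10% of all genes, and 2 of the 48 were, Psmb6 at 95.7 and Psmb4 at 94.1. Next came Psmb5 at 88.5, Psmb10 at 87.8 and Psmb3 at 83.4, all of them beta subunit genes. Psmb1, Psmb2 and Psmb7 were beta genes of ordinary spread, at 31.3, 41.3 and 48.3. Without BXD32 and BXD43, Psmb6 kept the 95.3rd percentile and Psmb5 the 86.8th, while Psmb4 went to 81.6, Psmb10 to 72.8 and Psmb3 to 37.2.

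A common pattern over lines went with the base composition of the genes and in part with their transcript length. BXD43 was the lowest line for 17 of the 48 genes and BXD32 for 7, and no other line was lowest for more than 3. Of all genes with at least 1 CPM, 13.9% were lowest in BXD43 and 12.7% in BXD32. In these 2 libraries genes rich in G and C were low throughout the table. The median deviation of genes with at least 55.1% GC in the transcript, the top 25% of genes, minus that of genes with at most 45.6%, the bottom 25%, was -0.53 log2 units in BXD43 and -0.48 in BXD32, and between -0.35 and 0.23 in the other 34 lines. This per-line value is called the GC difference below. The same 2 libraries also stood apart by transcript length. The median deviation of the longest 25% of genes minus that of the shortest 25% was 0.34 log2 units in BXD43 and 0.27 in BXD32. It was between -0.24 and 0.19 in the other 34 lines. Over the 48 genes, r of the deviation with GC content was -0.73 in BXD43 and -0.69 in BXD32, and with transcript length 0.43 and 0.30. The parts of GC content and length were not tested. Among the 48 genes, the 9 with at least 55.1% GC had a median deviation from the middle line of -0.46 in BXD43 and -0.55 in BXD32, and the others -0.09 and -0.07. The ATPase gene Psmc6, with 36.97% GC the lowest of the 48, went the other way and had 116 CPM in BXD32 and 115 in BXD43, against a median of 90.7.

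Over all 36 lines the slope of each gene on the GC difference was fitted with edgeR, a choice made after seeing the data. Genes of the GC-rich and GC-poor groups that define the GC difference also contribute a little to it. Genes between these groups, such as Psmb4 and Psmb3, do not. At an adjusted p under 0.05, 52.5% of 16146 genes were called, and 31 of 49 proteasome genes, 23 with a positive and 8 with a negative slope. The largest positive slopes were those of Psmb4 (1.18 ± 0.11 SE log2 units per unit, adjusted p = 7.65e-11), Psmb10 (1.15 ± 0.13, 1.31e-09) and Psmb3 (1.11 ± 0.17, 7.39e-07). The largest negative slope was that of Psmc6 (-0.63 ± 0.06, adjusted p = 2.76e-11). Without BXD32 and BXD43, 5615 of 16119 genes were called, and 16 of 49 members. Psmb4 at 0.83 ± 0.13 and Psmb10 at 0.87 ± 0.16 were among these members. What the libraries with a low GC difference share was not tested. BXD32 also had the highest summed level of the oligodendrocyte markers (7368 CPM, median line 4717) and of the choroid plexus markers (68.0 CPM, median 41.3), while BXD43 had the lowest oligodendrocyte sum (3601 CPM). The neuron markers were above the median of 4037 CPM in both, with 4939.9 in BXD32, the highest line, and 4525 in BXD43. The microglia markers were below the median of 353 CPM in both, with 252 and 307. The hypothalamus markers were also below their median of 540 CPM, with 373 in BXD32 and 465 in BXD43. BXD43 had the highest astrocyte sum (1951 CPM, median 1650.5), and BXD32 had 1658. The part of these cell types in the members' levels was not tested.

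**Figure D2:**
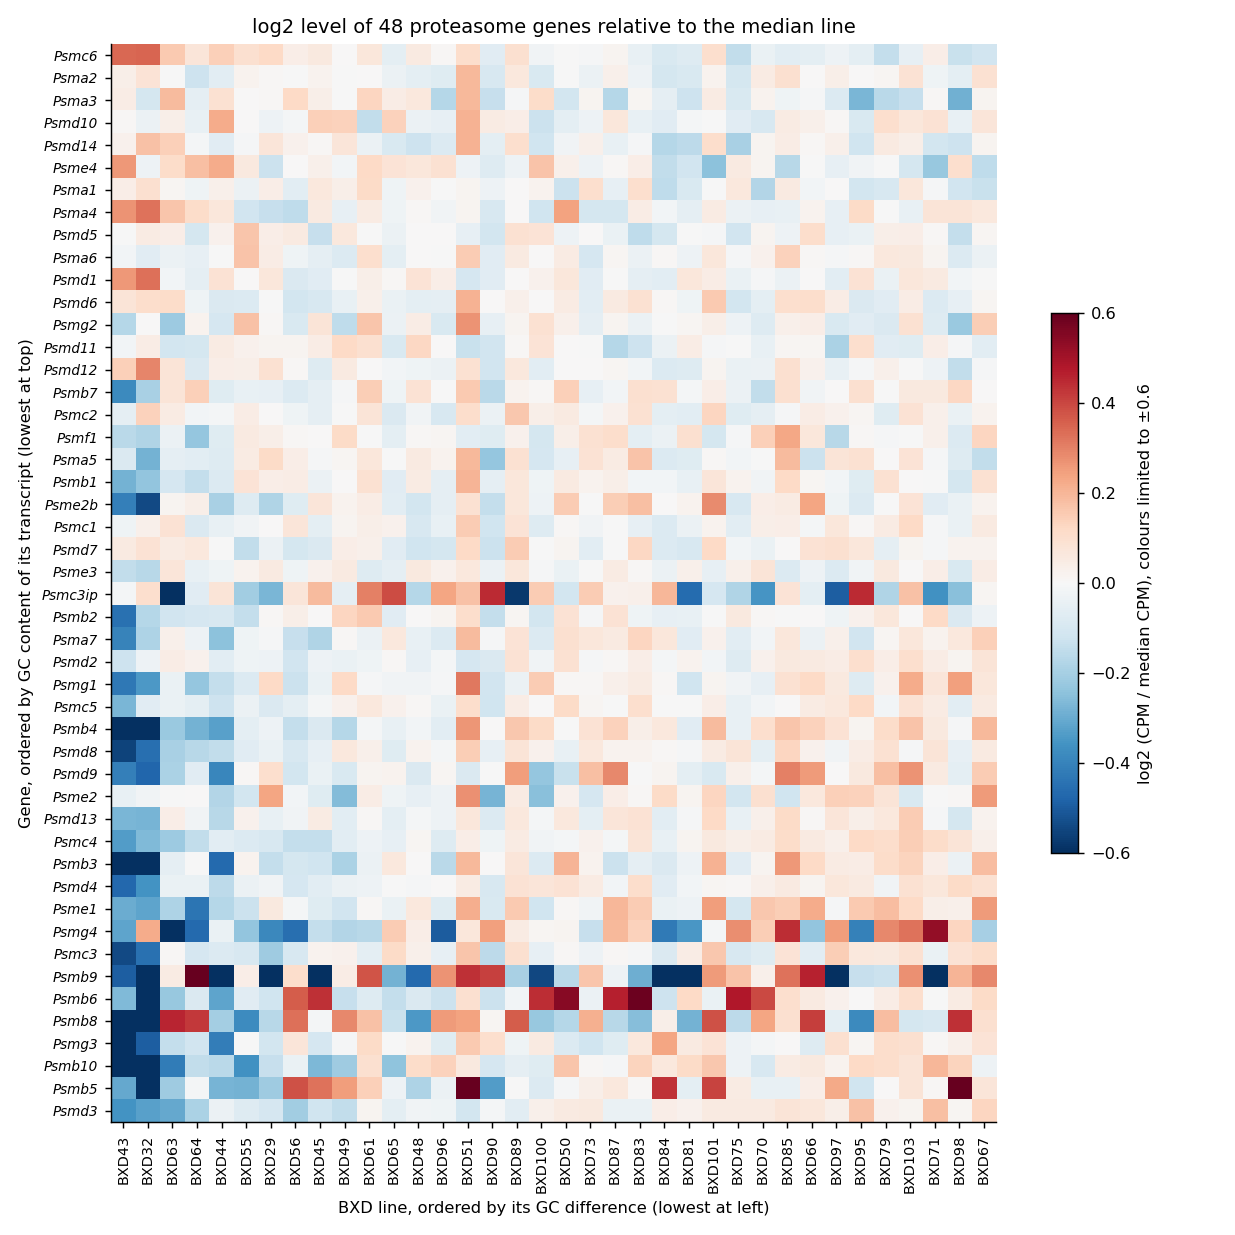
Deviation of each proteasome gene from its median line (colour, log2 of CPM over median CPM) in the 36 BXD lines, with genes ordered by GC content from top to bottom and lines by GC difference from left to right. BXD43 and BXD32 are at the left edge, with blue in the GC-rich genes at the bottom and red in Psmc6 at the top, and Psmb6 and Psmb5 have red cells in other lines.

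BXD51, the deepest library, was the highest line for 15 of the 48 genes, and its median deviation over them was 0.13 log2 units. Of all genes with at least 1 CPM, 5.40% were highest and 7.68% lowest in this library. BXD51 also stood apart by transcript length over all genes. The group of shortest genes had a median deviation of 0.11 log2 units in BXD51 and the group of longest genes -0.13. The difference, longest minus shortest, was -0.24, the lowest of all lines, while the GC difference of BXD51 was -0.01. The part of transcript length in the members' levels in BXD51 was not tested. BXD51 is the line with the highest level of Psmb1, Psmb4, Psmb7, Psma2 and Psmd14. A slope on log2 library depth over the 36 lines called 0 of 16249 genes (0%) with edgeR, and 0 of 49 proteasome genes. An unadjusted p under 0.05 was found for 8 proteasome genes and for 1877 of all genes. DESeq2 called 59 of all genes and 2 proteasome genes, the 19S genes Psmd6 (adjusted p = 0.039) and Psmd7 (0.0496). Their slopes were 0.17 and 0.16 log2 units per doubling of depth. 40 of the 49 slopes were positive, beside 49.1% of all genes.

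Psmb6, the gene of the subunit with caspase-like activity, parted the lines most. Its level was 36.0 CPM in the lowest line (BXD32), 58.0 in the median and 87.3 in the highest (BXD83). In order of level the 28 lower lines ended at 62.9 CPM (BXD81) and the 8 upper lines began at 74.6 CPM (BXD56). That step of 0.24 log2 units is wider than that of 97.0% of all genes with at least 6 lines on each side of the step, but no proteasome gene had a step of 1 log2 unit, as 0.476% of all genes had. The parents lay on the sides of the step, with 60.3 CPM in DBA/2J (95% Poisson interval 57.4 to 63.4, counting error only) and 74.9 CPM in C57BL/6J (71.6 to 78.4). The hybrids lay inside it, at 67.4 CPM in B6D2F1 and 69.7 in D2B6F1. The difference between the parents was 0.31 log2 units with a counting SE of 0.05, and with 1 library a parent it has no replicate check.

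The genes that followed Psmb6 over the lines were its neighbours. With edgeR and the GC difference as a covariate, a choice made after seeing the data, 33 of 16081 genes (0.205%) had a slope on Psmb6 with an adjusted p under 0.05. All 33 lay on chromosome 11, which holds 8.03% of the genes tested, and the farthest was 81 tested genes away from Psmb6. Among the 200 nearest tested genes, 100 on each side, 16.5% were called. The smallest p-values belonged to the muscle enolase gene Eno3 (slope 1.32 ± 0.12 SE log2 units per log2 unit of Psmb6, adjusted p = 2.64e-09) and the telomerase-associated gene Wrap53 (1.01 ± 0.09, 2.64e-09), followed by Odf4 at 4.85 ± 0.46 and Nlrp1b at 6.81 ± 0.69. Of the translation initiation gene Eif4a1, with a mean of 42.2 CPM, the slope was 1.34 ± 0.14. The slope was positive for 26 of the 33 and negative for 7, among them Xaf1 (-2.29 ± 0.27) and Arhgef15 (-0.72 ± 0.08). Of the 47 other proteasome genes tested, 0 were called.

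The parental libraries were not used by the slopes, and they gave the same direction for most of these genes. Of the 33 genes, 31 differed between C57BL/6J and DBA/2J in the direction their slope and the parental difference of Psmb6 give, against 48.9% of all 16081 genes. Eno3 had 12.8 CPM in C57BL/6J and 9.19 in DBA/2J, with 10.7 and 11.8 in B6D2F1 and D2B6F1. Xaf1, with a negative slope, had 4.77 CPM in C57BL/6J and 8.70 in DBA/2J, with 6.04 and 6.06 in the hybrids. Neighbouring genes are inherited together in these lines, so the 33 are not independent of each other. Without the covariate, 2124 of 16081 genes (13.2%) were called, 228 of them on chromosome 11. Leaving out BXD32 and BXD43 instead of using the covariate gave 37 of 15910 (0.233%), 36 of them on chromosome 11 within the same 81 genes.

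**Figure D3:**
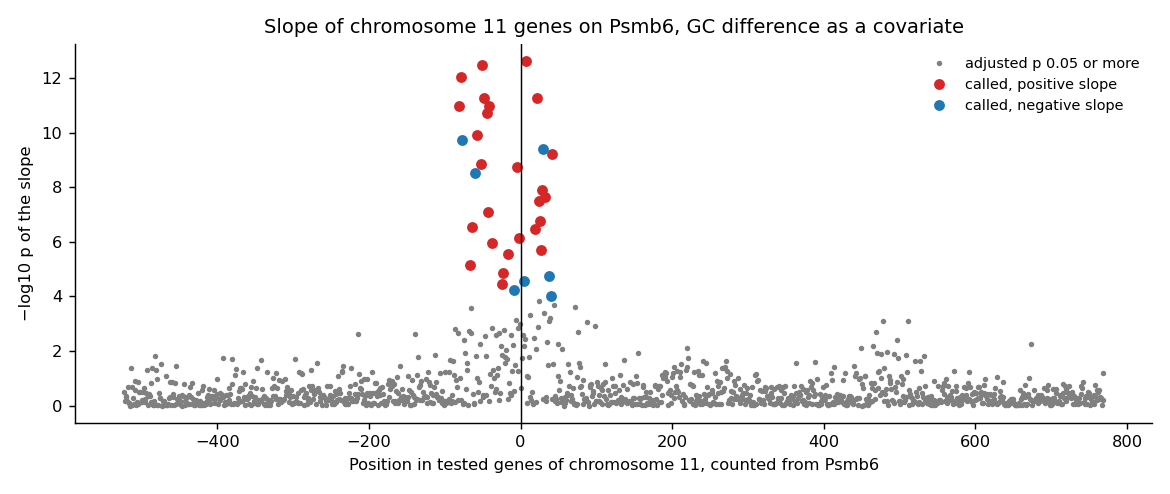
Strength of the slope on Psmb6 (−log10 p, edgeR with the GC difference as a covariate) for each tested gene of chromosome 11, by its position in gene order counted from Psmb6. Coloured points are the 33 genes with an adjusted p under 0.05, red for positive and blue for negative slopes, and they lie within 81 genes of Psmb6.

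Psmb5, the gene of the subunit with chymotrypsin-like activity, showed a like pattern on chromosome 14 without a step. Its level was 8.84 CPM in the lowest line (BXD32), 14.7 in the median and 22.5 in the highest (BXD98), and the largest step was 0.08 log2 units. C57BL/6J had 20.04 CPM (18.3 to 21.9) and DBA/2J 16.1 (14.6 to 17.7), a difference of 0.32 log2 units with a counting SE of 0.10. B6D2F1 had 16.8 and D2B6F1 16.4 CPM. With the GC difference as a covariate 72 of 16081 genes (0.448%) had a slope on Psmb5 at an adjusted p under 0.05, and 30 of them lay on chromosome 14, which holds 3.52% of the genes tested. All 30 were within 75 tested genes of Psmb5, and 29 of them differed between the parents in the direction of their slope, against 54.2% of all genes. The methyltransferase gene Prmt5, 4 tested genes away, led with a slope of 0.59 ± 0.05 (adjusted p = 8.61e-09). Without the covariate the count was 2811 of 16081 (17.5%), and without BXD32 and BXD43 it was 49 of 16048 (0.305%), 21 of them on chromosome 14. Since 24.9% of the windows of Psmb5 are shared with other genes, part of its reads may not have been placed, which was not tested.

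**Figure D4:**
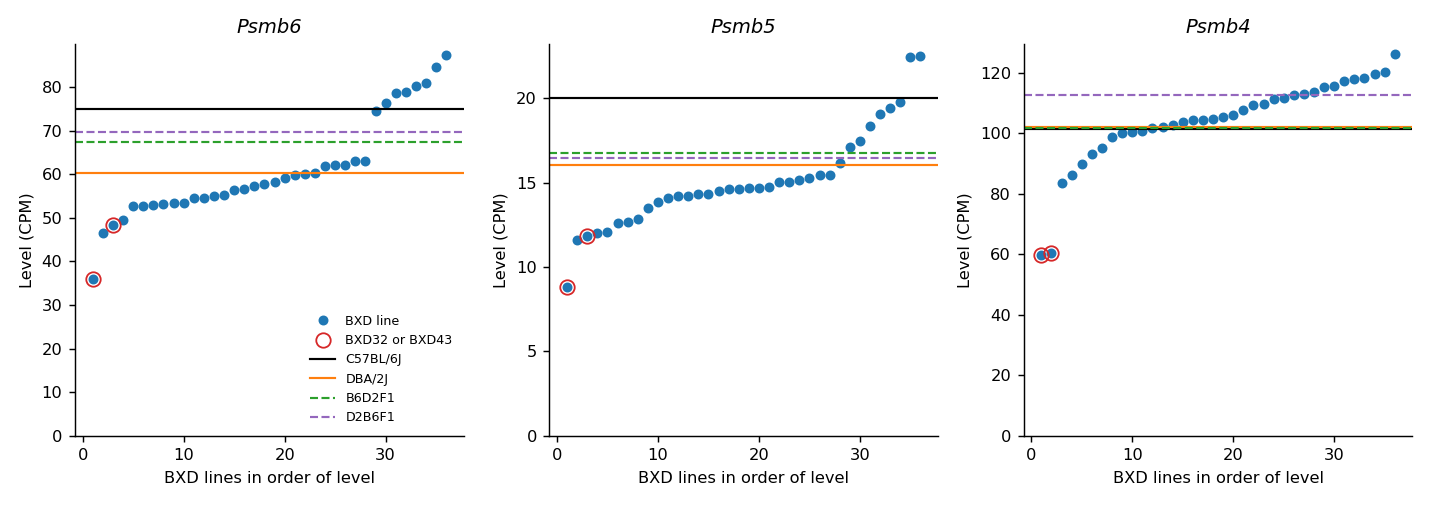
Level in CPM of Psmb6, Psmb5 and Psmb4 in the 36 BXD lines in order of level (points), with the parents as solid and the hybrids as dashed horizontal lines and BXD32 and BXD43 circled. Psmb6 shows a step between 62.9 and 74.6 CPM, while Psmb4 has BXD43 and BXD32 apart at the low end.

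Psmb4, a beta subunit gene without a cutting site, varied in another way. It had 59.7 CPM in BXD43 and 126 in BXD51, with a median of 105, and the parents had 101 CPM (C57BL/6J) and 102 (DBA/2J). The slope on Psmb4 called 8073 of 16248 genes over 36 lines and 1491 with the GC difference as a covariate, with 65 of the 1491 on its own chromosome 3, which holds 4.83% of the genes tested. Psmb7, the gene of the subunit with trypsin-like activity, was steady, with 66.6 CPM in BXD43, a median of 86.9 and 96.9 in BXD51, and with 82.3 CPM in C57BL/6J and 85.2 in DBA/2J. Of the 3 cutting subunits, Psmb7 alone had a spread under the middle of all genes.

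Across the 44 proteasome genes with at least 5 CPM in either parent, none differed by 0.5 log2 units or more between C57BL/6J and DBA/2J, beside 2.99% of all genes. The largest differences among them were 0.35 for the chaperone gene Psmd9, 0.32 for Psmb5 and 0.31 for Psmb6, all higher in C57BL/6J. Psmd9 had 28.4 CPM in C57BL/6J, 22.3 in DBA/2J, and 24.6 and 25.7 in the hybrids. The median absolute difference was 0.05 for the 44 genes and 0.08 for all genes. A difference of more than 2 counting SEs was found for 7 of the 44, beside 32.3% of all genes, and in 6 of these 7 both hybrids lay between the parents. The 7 were picked because their parents lay apart, which makes a place between them likely for any library. The share among all genes picked in this way is not given, so the 6 of 7 is a description only. Below 5 CPM, Psmb8 differed by -0.63 with a counting SE of 0.26, Psmb9 by -0.52 with 0.41, and the chaperone gene Psmg4 by -0.46 with 0.20, all higher in DBA/2J. The hybrids B6D2F1 and D2B6F1, which have the same nuclear parents in opposite roles, differed by 0.5 log2 units in 0 of 44 genes, beside 0.8% of all genes.

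The immunoproteasome genes split into a pair with few reads, Psmb8 and Psmb9, and a single gene with more, Psmb10. Psmb8 had 1.504 CPM in the lowest line (BXD43), 2.80 in the median and 3.83 in the highest (BXD63), from 26 to 136 reads. Psmb9 had 0.71 CPM in BXD44, 1.29 in the median line and 1.97 in BXD64, from 16 to 72 reads. Psmb10 had 13.8 CPM in BXD43, 24.7 in the median and 28.4 in BXD71, from 232 to 1058 reads. C57BL/6J had 1.91, 0.795 and 23.9 CPM of the 3 genes in that order, and DBA/2J had 3.00, 1.18 and 25.7. For Psmb8 and Psmb9 the hybrids lay between the parents, at 2.36 and 0.975 CPM in B6D2F1 and 2.54 and 1.10 in D2B6F1. Per kb of exon, Psmb8 made up 9.51% ± 1.67 (SD, n = 36) of Psmb8 and Psmb5 together, Psmb9 made up 1.22% ± 0.39 of Psmb9 and Psmb6, and Psmb10 made up 19.5% ± 1.81 of Psmb10 and Psmb7. The first of these shares is raised by reads of Psmb5 that could not be placed, if any.

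Psmb8, Psmb9 and Tap1, the neighbouring gene of a subunit of the peptide transporter for MHC class I, rose and fell together over the lines. In a family of 10 planned correlations of log2 levels (two-sided permutation tests over 36 lines, Benjamini-Hochberg adjusted), Pearson's r was 0.58 for Psmb8 with Psmb9 (p = 0.00019, adjusted 0.00038, Spearman's rho 0.59, p = 0.00023). It was 0.60 for Tap1 with Psmb8 (p = 0.00014, adjusted 0.00038, rho 0.59, p = 0.00021) and 0.59 for Tap1 with Psmb9 (p = 0.00015, adjusted 0.00038, rho 0.59, p = 0.0002). Without the 2 lines farthest from the median of the first gene these values were 0.56, 0.64 and 0.54. After regression of each gene on the GC difference they were 0.55, 0.56 and 0.57. Counting alone gives an SD of 0.19 log2 units for Psmb8, whose SD was 0.31, and of 0.29 for Psmb9, whose SD was 0.41.

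Psmb10, on another chromosome, did not follow that pair once BXD43 and BXD32 were left out. Its r with Psmb8 was 0.44 (p = 0.00801, adjusted 0.0114, rho 0.09, p = 0.612), and -0.05 without these 2 lines, so the relation rests on them. Its r with Psmb9 was 0.21 (p = 0.219, adjusted 0.243, rho 0.13, p = 0.442) and with Tap1 0.24 (p = 0.165, adjusted 0.206, rho 0.07, p = 0.695), both permutation tests over 36 lines. With the constitutive gene it replaces, Psmb7, the r of Psmb10 was 0.71 (p = 5e-05, adjusted 0.00038, rho 0.60, p = 0.00014), and it was 0.41 without BXD43 and BXD32 and 0.62 after regression on the GC difference. The member closest to Psmb10 was the ATPase gene Psmc4, with r of 0.84 over all lines and 0.71 without these 2 libraries, and after the regression it was Psmb7. Psmb5 and Psmb8 also had a positive r of 0.59 (p = 0.00018, adjusted 0.00038, rho 0.52, p = 0.00113), 0.46 without 2 lines, whereas Psmb6 and Psmb9 had 0.10 (p = 0.57, adjusted 0.57, rho 0.10, p = 0.55). The subunits of the PA28 activator, Psme1 and Psme2, had 0.51 (p = 0.00171, adjusted 0.00285, rho 0.64, p = 5e-05) and 0.61 without 2 lines. Psme1 had 32.7 CPM in the lowest line (BXD64), 44.3 in the median and 52.8 in the highest (BXD67), and Psme2 had 4.65 in BXD90, 5.63 in the median and 6.81 in BXD51.

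**Figure D5:**
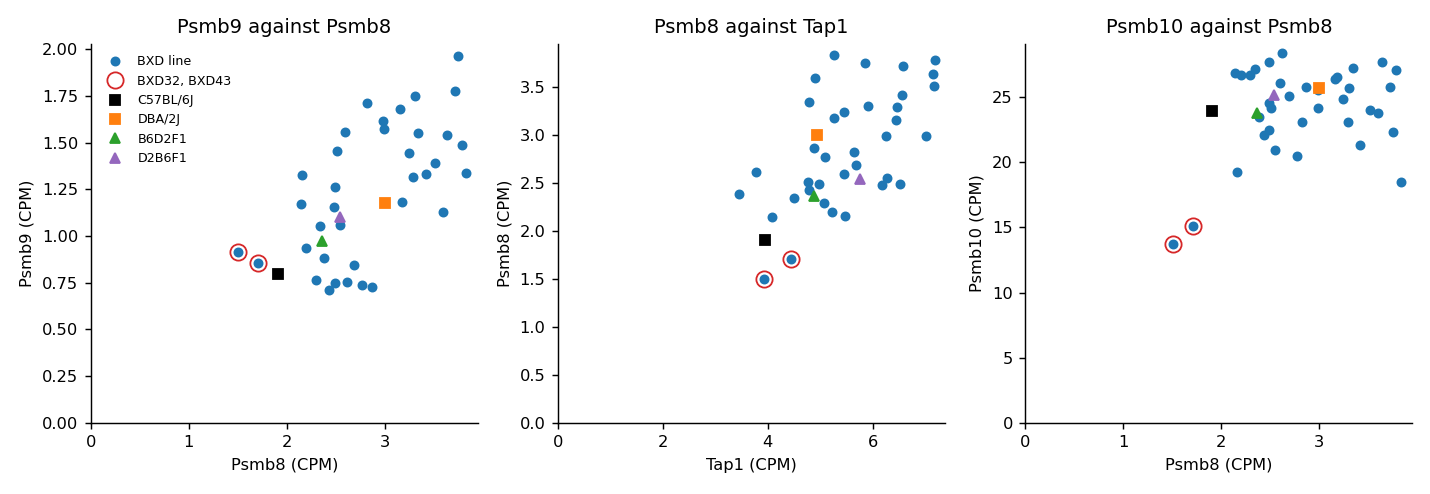
Levels in CPM of Psmb9 against Psmb8, Psmb8 against Tap1 and Psmb10 against Psmb8, with 1 point per BXD line, BXD32 and BXD43 circled, and the parents and hybrids as squares and triangles. The first 2 panels show levels rising together, and in the third the circled lines lie apart at the low end of both genes.

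A slope of all genes on each immunoproteasome gene, chosen after seeing the data, gave 761 of 16081 genes for Psmb8 over 36 lines (4.73%), 0 of 15746 without BXD32 and BXD43 (0%, with 857 at an unadjusted p under 0.05) and 0 of 16081 with the GC difference as a covariate (0%, with 2028). Among the 761 were Psmb9 and Tap1 and the interferon response genes Irf7, Oas2 and Usp18, 3 of 16 on that list. All 16 listed interferon response genes had a positive slope on Psmb8 in each of the 3 fits, and the median slope was 0.52 with the covariate, under which 52.2% of all genes had a positive slope. For the MHC class I activator Nlrc5 that slope was 0.82 ± 0.18, with an adjusted p of 0.055. For Psmb9 the counts were 0 of 15778 (0%, with 1420 at an unadjusted p under 0.05), 0 of 15796 without the 2 lines (0%, with 789) and 1 of 15778 with the covariate (0.00634%). For Psmb10 they were 7558 of 16248 (46.5%), 3296 of 16048 (20.5%) and 4 of 16248 (0.0246%). The summed level of 10 microglia markers ran from 252 CPM in BXD32 to 415 in BXD89, and its part in the levels of the immunoproteasome genes was not tested.

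No proteasome gene was called between the kinds of strain or on Fgf15. With edgeR, 0 of 49 differed between the 36 BXD lines and the 4 parental and hybrid libraries (0% of 16198 genes called, 2 members at an unadjusted p under 0.05, 0 by DESeq2), and 0 of 49 between the 2 hybrids and the 38 inbred libraries (0% of 16434 genes, 0 members at an unadjusted p under 0.05, 0 by DESeq2). The unadjusted p was under 0.05 for 163 of the 16198 genes and 109 of the 16434. On Fgf15, the gene in the study's title, 0 of 48 had a slope (0.00631% of 15836 genes called, 3 members at an unadjusted p under 0.05, 0 by DESeq2). Of the 15836 genes, 817 had an unadjusted p under 0.05. The 3 members were Psmb9 (0.21 ± 0.08, adjusted p = 0.90), Psmb8 (0.15 ± 0.06, 0.91) and Psme3 (0.03 ± 0.01, 0.91).

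On Nfe2l1, the gene of the factor that drives proteasome genes under proteasome inhibition, 0 of 48 had a slope with edgeR (0.256% of 16003 genes called, 5 members at an unadjusted p under 0.05). An unadjusted p under 0.05 was found for 1857 of the 16003 genes. Nfe2l1 itself varied little, from 388 to 466 CPM over the lines, and its protein is regulated after translation, so its mRNA is a narrow measure of the factor. Psmd2 came nearest with a slope of 0.56 ± 0.16 and an adjusted p of 0.094. Over the alternatives its adjusted p ran from 0.0101 (DESeq2) to 0.0935, and it was 0.0155 without BXD32 and BXD43. With the GC difference as a covariate 5 of 48 members were called, beside 423 of 16003 genes. The slopes of Psma4 (0.86 ± 0.24), Psmd1 (0.66 ± 0.18) and Psmd2 (0.51 ± 0.13) were positive. Those of Psmb1 (-0.67 ± 0.19) and Psmd8 (-0.77 ± 0.18) were negative. The direction of the members' slopes changed between fits. With the covariate 13 of 48 were positive beside 7339 of 16003 genes, and the median slope was -0.20. Without BXD51 and BXD32, the 2 lines farthest from the median of Nfe2l1, 34 of 48 were positive beside 7749 of 15965 genes. The median was then 0.22. In the main edgeR fit 19 of 48 were positive beside 47.5% of all genes, with a median of -0.06. Of 9 further genes of the NFE2L1 pathway tested, such as Ddi2 and Ngly1, which process the protein, and of 21 proteasome-associated genes, such as Pomp and Adrm1, 0 were called.

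Taken pair by pair, the 48 genes were weakly correlated over lines. The median Pearson r over 1128 pairs was 0.18, beside -0.0025 for all gene pairs with at least 1 CPM, and 19.9% of member pairs and 5.72% of all pairs had r over 0.5. After regression on the GC difference the median was 0.16 for member pairs and 0.0015 for all pairs, with 7.62% of member pairs and 1.30% of all pairs over 0.5. The beta subunits had a median r of 0.53 over 21 pairs, which was 0.31 after the regression, and the alpha subunits had 0.16 and 0.23. The closest pair after the regression was the alpha subunit gene Psma2 with the ATPase gene Psmc1 at 0.82, next to Psma2 with the deubiquitinase gene Psmd14 at 0.80. These values share libraries and depth and are descriptions, and genes are not replicates.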

How the data were processed

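Stranded mRNA libraries of hypothalamus were sequenced, per the labels' protocols. TopHat2 2.0.8, HTSeq 0.5.4p3 and DESeq with build mm9 are named per the submitters' processing notes, and an annotation is not given in the sources used here. The authors deposited whole-number read counts for 23955 symbols and a normalized signal for 15251 genes, in which every value was a whole multiple of the library's unit within 0.01. Counts were fitted with edgeR 4.0.16 (TMM, filterByExpr, robust quasi-likelihood, Benjamini-Hochberg adjusted p under 0.05) over all genes in R 4.3.3. DESeq2 1.42.0, and limma 3.58.1 on log2(signal + 1), served as alternatives, with edgeR on reads recovered from the signal. log2 CPM carry a prior count of 2. The fits between kinds of strain and on Fgf15 were tested on simulated data. Those on Nfe2l1, depth, the GC difference and single members were not. Of genes changed by 0.5 log2 units, 74.7% were found for BXD lines against the other libraries and 59% for hybrids against inbred libraries. Of slopes of 0.5 on Fgf15, 97.0% were found. GC content, exon length, shared windows and gene order came from GENCODE vM21 transcripts, not mm9. Members, lists and tests were chosen with earlier results of these data known. Genes were named by a rule: Psmb5 to Psmb10, Psme1, Psme2, members called in a planned fit, the 5 largest parental differences and residual spreads. Genes that followed Psmb5 or Psmb6 were named by p, and other single members were named after their values were seen. Intervals hold counting error alone, and reads copied by PCR are counted as separate. Slopes on single members or on the GC difference, the covariate and the fits without BXD32 and BXD43 were chosen after seeing the data. 1 planned fit is not reported here.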

Additional observations from a re-analysis of the deposited data

How the results depend on the processing

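With no filter, the normalized table, recovered reads or another prior count, counts of members called were the same as in the report. DESeq2 called 1 member on Nfe2l1 and 2 on depth. Leaving out BXD32 and BXD43 left 1 member above the 90th spread percentile and called 1 on Nfe2l1 and 16 on the GC difference. Leaving out the 2 lines farthest in Nfe2l1 called 1. The GC difference as a covariate called 5 on Nfe2l1 and 1 on depth. Genes following a member went to 49 and 72 for Psmb5, 37 and 33 for Psmb6, 0 and 0 for Psmb8, 3296 and 4 for Psmb10 (without BXD32 and BXD43, and with the covariate), and 1 for Psmb9 with the covariate. 3 correlations changed sign: Psmb8 with Psmb10 (-0.0524 without the 2 lines), Tap1 with Psmb10 (-0.0460, and -0.0127 after the regression on the GC difference) and Psmb6 with Psmb9 (-0.0255 and -0.0193). Leaving out single parental or hybrid libraries gave 0 members called each time. The cause of each change was not tested. Over all genes, calls on Nfe2l1 went from 41 to 230 (DESeq2), 142 (no filter), 515 (without BXD32 and BXD43), 347 (farthest lines left out), 153 (depth as a covariate) and 423 (GC difference). Calls on depth went from 0 to 59 (DESeq2), 81 (without BXD32 and BXD43) and 57 (GC difference). Calls on the GC difference itself went from 8476 to 5615 without BXD32 and BXD43. No paired analysis was possible because the labels give 1 library for every strain and no replicate numbers. At 16 to 72 reads, depth limits what can be said of Psmb9.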
